A study of Danio rerio with 6 samples.

Results

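The epidermal keratins krt4, krt5, krt8 and krt1-19d, the transcription factor gene tp63 and the epithelial adhesion genes epcam and cdh1 were followed in the regenerating caudal fin of the zebrafish. These 7 genes were chosen by Ensembl identifier from the 31901 listed in each library, to compare genes of the basal and superficial layers of the epidermis. Tissue came from fish carrying the shha:eGFP reporter, a transgene in which eGFP marks the expression of the Hedgehog ligand gene shha, and all libraries share it. At 96 hours post amputation the outgrowth was cut into a distal part, recognised by its eGFP, and the proximal part behind it. There were 3 distal and 3 proximal libraries, numbered 2, 3 and 4 in both regions, and each pooled tissue from 4 fins. The age and strain of the fish are not given in the sources used here, and neither is whether parts with the same number came from the same fins.

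Fish epidermis is a stratified epithelium. Its basal layer sits on the basement membrane and is held there by hemidesmosomes, and in zebrafish it is marked by krt5 and by the transcription factor p63, the product of tp63, which is required for that layer to form. The outermost cells form a thin superficial layer, whose keratins include those encoded by krt4 and krt8. After amputation the epidermis covers the stump within hours to days and then thickens over the outgrowing tissue, and the basal layer of the distal regenerate is a source of signals, among them shha. Keratins form filaments from pairs of a type I and a type II protein, and krt4, krt5 and krt8 are type II genes. E-cadherin, the product of cdh1, and the adhesion molecule encoded by epcam join epithelial cells of all layers to each other.

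One of the 7 identifiers was selected under the symbol krtt1c19e, a marker of basal keratinocytes in zebrafish. The gene table names that identifier, ENSDARG00000023082, krt1-19d. In the RefSeq gene table krtt1c19e is a synonym of krt1-19e, which the gene table gives as another identifier, ENSDARG00000090268. The selected gene is therefore called krt1-19d here, krt1-19e is given beside it as a gene outside the set, and no layer is assigned to krt1-19d. The other 6 identifiers carried the symbol under which they were selected. They are ENSDARG00000017624 for krt4, ENSDARG00000058371 for krt5, ENSDARG00000058358 for krt8, ENSDARG00000044356 for tp63, ENSDARG00000040534 for epcam and ENSDARG00000102750 for cdh1. RefSeq also lists krt8 among the older names of krt4, so a report that uses the name krt8 may mean either gene.

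All 7 genes were abundant, with 6090 to 850697 reads per gene and library, out of 20113859 to 23629159 gene-assigned reads per library. At these counts the spread between libraries, not counting error, sets the precision. Together the 7 genes held 2.37 to 2.48% of all counted reads in distal libraries and 4.69 to 5.15% in proximal libraries. Values below are CPM (counts per 1000000 gene-assigned reads). Log2 fold changes are distal over proximal and come from edgeR's quasi-likelihood test across 18455 genes after TMM scaling, with Benjamini-Hochberg adjustment and a threshold of 0.05. Transcript lengths were not used, so the level of one gene cannot be ranked against that of another, and only changes between libraries are compared.

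Of the 7 genes, 4 were lower in distal tissue (krt5, krt1-19d, krt4 and tp63), 0 were higher, and 3 did not pass the test (krt8, epcam and cdh1). Among all tested genes 14.4% were lower and 15.3% higher in distal tissue, 29.7% in all. The median log2 fold change was -0.56 over the 7 genes and -0.015 over all tested genes. In CPM, the distal libraries lay below the proximal ones for the same 4 genes and above them for cdh1. Such separation was found for 16.4% of tested genes with distal lower and for 30.1% with distal higher. These are pieces of whole tissue, so fewer cells of a type and less RNA per cell cannot be told apart.

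**Figure D1:**
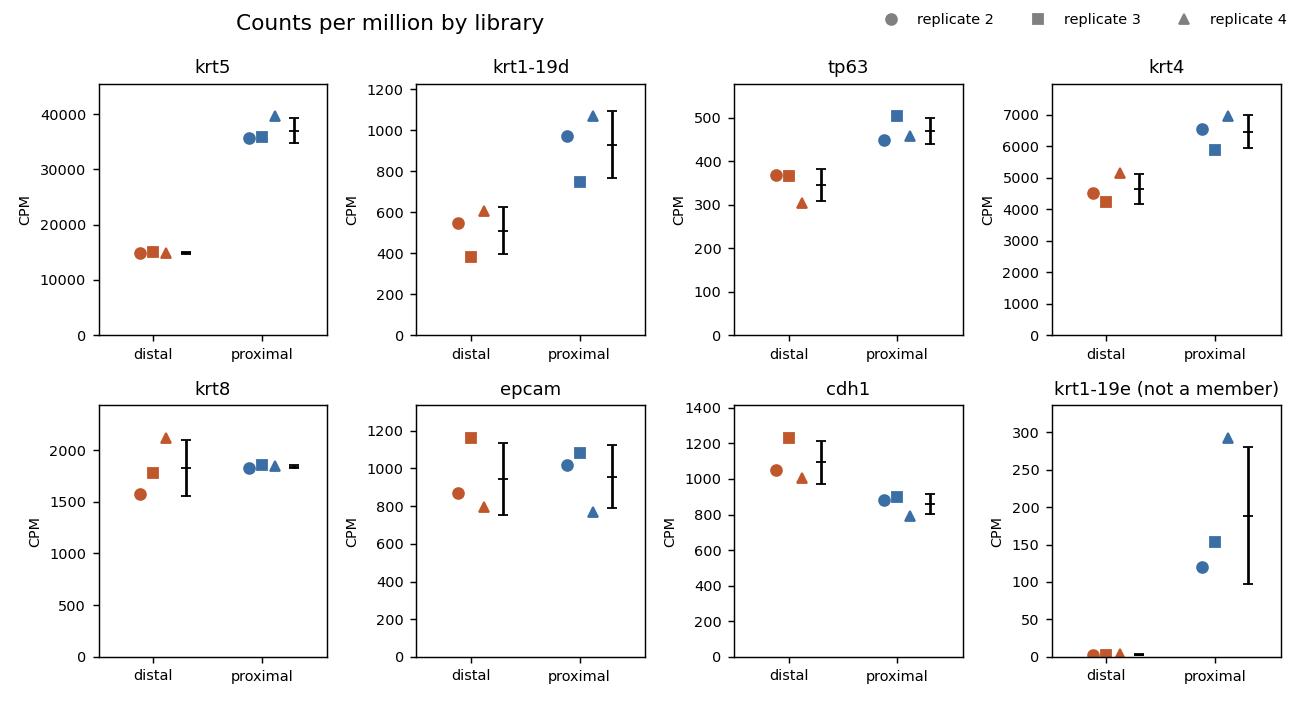
CPM of each gene in the 3 distal libraries (orange, left) and 3 proximal libraries (blue, right), one panel per gene, each axis from 0. Bars show the mean ± SD beside the points, and krt1-19e, the gene outside the set, falls to 2.19 to 3.28 CPM in distal libraries, against 120 to 292 CPM in proximal ones.

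The basal keratin krt5 showed the largest change of the 7. It had 14816, 15085 and 14841 CPM in distal libraries 2, 3 and 4, against 35652, 35888 and 39604 CPM in proximal libraries 2, 3 and 4. The distal libraries were nearly equal, and every proximal library was above all of them. The log2 fold change came to -1.44 (SE 0.11; adjusted p = 8.33e-05 by edgeR), or 2.71-fold lower in distal tissue. Within the same-numbered pairs the log2 ratio of CPM was -1.27, -1.25 and -1.42. This gene alone took 1.48 to 1.51% of gene-assigned reads in distal libraries and 3.57 to 3.96% in proximal libraries.

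The change in tp63 was smaller. Distal libraries 2, 3 and 4 had 369, 365 and 303 CPM, and proximal libraries 2, 3 and 4 had 448, 503 and 458 CPM. The regions did not overlap, and the distal library numbered 4 was the lowest. The log2 fold change of tp63 was -0.56 (SE 0.10; adjusted p = 0.00504 by edgeR), which is 1.48-fold lower in distal tissue. Its pair ratios on the log2 scale were -0.28, -0.46 and -0.60. The 2 basal genes therefore changed by different amounts: the log2 ratio of krt5 to tp63 CPM within a library averaged 5.44 ± 0.16 in distal and 6.30 ± 0.14 in proximal tissue (SD, n = 3 each), and the regions did not overlap.

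The type I keratin gene krt1-19d had 545, 381 and 604 CPM in distal libraries 2, 3 and 4, against 972, 747 and 1066 CPM in proximal libraries 2, 3 and 4. The library numbered 3 was the lowest in both regions, and the highest distal value was below the lowest proximal one. Its log2 fold change was -0.99 (SE 0.22; adjusted p = 0.0108 by edgeR), 1.98-fold lower in distal tissue. The pair ratios of -0.83, -0.97 and -0.82 were close to each other, although the libraries of a region differed from one another by more.

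The superficial keratin krt4 was also lower in distal tissue. It had 4520, 4228 and 5157 CPM in distal libraries 2, 3 and 4, and 6542, 5884 and 6939 CPM in proximal libraries 2, 3 and 4. No distal value reached the lowest proximal one. Its log2 fold change was -0.60 (SE 0.13; adjusted p = 0.0115 by edgeR), 1.52-fold lower in distal tissue, with pair ratios of -0.53, -0.48 and -0.43.

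The other superficial keratin, krt8, did not pass the test. Distal libraries 2, 3 and 4 had 1578, 1776 and 2115 CPM, and proximal libraries 2, 3 and 4 had 1822, 1851 and 1848 CPM. The proximal libraries were nearly equal, and the distal ones lay on both sides of them. The log2 fold change of krt8 was -0.13 (SE 0.12; adjusted p = 0.461 by edgeR), and its pair ratios of -0.21, -0.06 and 0.19 differed in sign.

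The adhesion genes did not pass the test either. The gene epcam had 870, 1161 and 798 CPM in distal libraries 2, 3 and 4, and 1018, 1083 and 769 CPM in proximal libraries 2, 3 and 4. The regions overlapped, and library 4 was the lowest of each region. Its log2 fold change was -0.14 (SE 0.16; adjusted p = 0.55 by edgeR). The E-cadherin gene cdh1 had 1048, 1229 and 1003 CPM in distal libraries 2, 3 and 4, and 883, 900 and 794 CPM in proximal libraries 2, 3 and 4. All 3 distal values of cdh1 were above the proximal ones, with pair ratios of 0.25, 0.45 and 0.34. Its log2 fold change was 0.23 (SE 0.10; adjusted p = 0.121 by edgeR, and 0.0432 with library size alone as the scaling). Scaling matters here: the median over all tested genes was 0.11 on the log2 scale with library size alone and -0.015 with TMM.

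Beside these values, most matched markers of mesenchyme were higher in distal tissue. Of 9 fibroblast and mesenchyme markers 5 could be matched, and 4 of these were higher and 1 lower in distal tissue. Among all tested genes 15.3% were higher and 14.4% lower, the background for every list in this paragraph in the fit without a block. The 5 matched mesenchyme markers are summed next. Their summed level was 1261 to 1364 CPM in distal and 635 to 815 CPM in proximal libraries. The largest rises were in dcn, a matrix proteoglycan gene, with a log2 fold change of 1.74 (SE 0.13; adjusted p = 6.75e-05 by edgeR), and in pdgfra, a growth factor receptor gene of fibroblasts, with 1.74 (SE 0.16; adjusted p = 0.000172 by edgeR). The mesenchyme marker that was lower, lum, had means of 282 CPM in distal and 408 CPM in proximal libraries. Its log2 fold change was -0.65 (adjusted p = 0.00164 by edgeR). The matched leukocyte markers, with 3 of 4 tested genes lower, summed to 729 to 827 CPM in distal and 809 to 887 CPM in proximal libraries. Most of this sum was cd74a, which did not pass, with means of 717 CPM in distal and 747 CPM in proximal libraries. The 3 called genes had distal and proximal means of 10.3 and 18.6 CPM (ptprc), 45.9 and 67.3 CPM (lcp1) and 15.9 and 21.5 CPM (coro1a). The call of coro1a was lost in 9 of 17 alternatives. Osteoblast markers, with 1 of 4 lower, summed to 127 to 150 CPM in distal and 124 to 172 CPM in proximal libraries. The called gene, spp1, had means of 11.8 CPM in distal and 74.2 CPM in proximal libraries. Its log2 fold change was -2.77 (adjusted p = 0.000603 by edgeR). With the replicate number as a block 2 of the 4 tested osteoblast genes were higher, sp7 (adjusted p = 0.00596 by edgeR) and ifitm5 (adjusted p = 0.00162 by edgeR). In that fit 23.3% of all tested genes were higher and 25.1% lower. The osteoblast gene bglap had 0 to 2 counts in every library of both regions. Sums for the other cell types likewise cover the matched markers only. For ionocyte and mucous cell markers 1 of 4 tested genes was lower. These markers summed to 7.96 to 11.8 CPM in distal and 44.8 to 54.6 CPM in proximal libraries. The called gene, agr2, made up most of the proximal sum, with a mean of 46.7 CPM against 5.95 CPM in distal libraries. The other 3 tested genes did not pass. Endothelial markers, with 1 of 2 lower, had 26.8 to 31.8 CPM in distal and 31.8 to 56.8 CPM in proximal libraries. The called gene, tie1, had means of 14.7 CPM in distal and 29.1 CPM in proximal libraries. Those of kdrl, which did not pass, were 14.4 and 14.0 CPM. The endothelial gene cdh5, too low to be tested, went the other way. Its reads were 38, 12 and 7 in distal libraries 2, 3 and 4, and 6, 3 and 2 in proximal ones. Pigment cell markers, with 3 of 3 lower, had 2.09 to 5.37 CPM in distal and 28.4 to 45.2 CPM in proximal libraries. The call of pnp4a among them was lost in 10 of 16 alternatives. Neural and glial markers, with 1 of 1 lower, had 0.94 to 2.19 CPM in distal and 4.66 to 5.62 CPM in proximal libraries. That 1 tested gene, sox10, made up most of the proximal sum, with a mean of 4.65 CPM against 0.75 CPM in distal libraries. The neural gene elavl3, too low to be tested, went the other way. It had 8, 8 and 15 reads in distal libraries 2, 3 and 4, and 1, 1 and 4 in proximal ones. Red blood cell genes, of which 0 of 2 passed, varied most between libraries, from 18.4 to 436 CPM in distal and from 13.4 to 183 CPM in proximal tissue. Reads assigned to no gene feature made up 14.1 to 14.6% of uniquely aligned reads in distal and 10.8 to 12.6% in proximal libraries, without overlap. The part of these cell types and of the unassigned reads in the keratin results was not tested.

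Basal and superficial genes were compared within libraries, where scaling between libraries cancels. The log2 ratio of krt5 to krt4 CPM was 1.71, 1.84 and 1.52 in distal libraries 2, 3 and 4, against 2.45, 2.61 and 2.51 in proximal libraries 2, 3 and 4. The regions did not overlap, and the mean difference was -0.83 on the log2 scale. An exact two-sided permutation test over the libraries gave p = 0.1, the smallest that 3 against 3 libraries allow. Within pairs the differences were -0.73, -0.77 and -0.99, and exchanging regions within the pairs gave an exact two-sided p = 0.25, again the smallest possible.

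The other basal to superficial pairs did not all behave alike. The log2 ratio of tp63 to krt4 CPM was -3.61, -3.53 and -4.09 in distal libraries 2, 3 and 4, and -3.87, -3.55 and -3.92 in proximal libraries 2, 3 and 4. The regions overlapped in this ratio. Within the superficial layer, the log2 ratio of krt4 to krt8 averaged 1.35 ± 0.15 in distal and 1.81 ± 0.12 in proximal tissue (SD, n = 3 each), with no overlap. Between regions, the mean log2 ratio differed by -0.87 for krt5 to tp63, both of the basal layer. For krt4 to krt8, both of the superficial layer, it differed by -0.46. Between layers the difference was -1.29 for krt5 to krt8, without overlap, -0.83 for krt5 to krt4 and 0.03 for tp63 to krt4. The ratio of tp63 to krt8 was not computed. Changes thus differed within layers as well as between them, and the largest of these differences was that of krt5 to krt8. Summed over krt5, krt1-19d and tp63, reads were 2.17 to 2.64 times those of krt4 and krt8 in distal libraries and 4.43 to 4.80 times in proximal libraries. This sum counts krt1-19d with the basal genes, as the symbol it was selected under would, and it is almost entirely krt5.

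**Figure D2:**
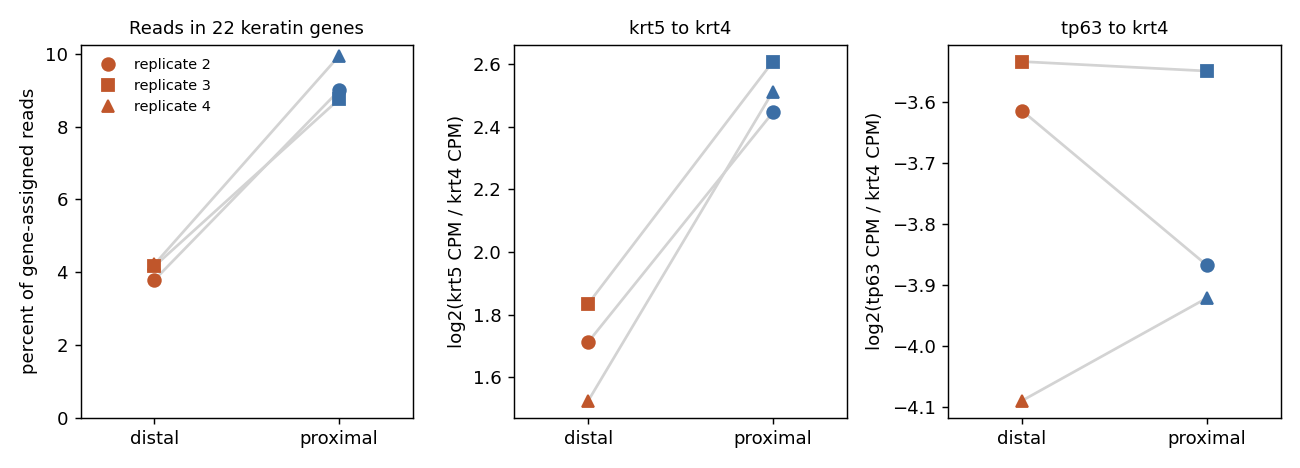
Percent of gene-assigned reads in the 22 keratin genes (left), log2 ratio of krt5 to krt4 CPM (middle) and log2 ratio of tp63 to krt4 CPM (right) in each library, with grey lines joining same-numbered distal and proximal libraries. The first 2 measures are lower in all 3 distal libraries, while the tp63 to krt4 ratios overlap, with -4.09 to -3.53 in distal and -3.92 to -3.55 in proximal libraries.

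Keratins as a family took a smaller share of the reads in distal tissue. The 22 listed genes with a keratin name held 3.79, 4.16 and 4.21% of gene-assigned reads in distal libraries 2, 3 and 4, against 8.99, 8.75 and 9.94% in proximal libraries 2, 3 and 4. Every distal library was below every proximal one, and krt5 made up 35.2 to 39.1% of these reads in distal and 39.6 to 41.0% in proximal libraries. Without krt5 the remaining keratins summed to 23044 to 27302 CPM in distal and 51640 to 59826 CPM in proximal libraries, again without overlap. When keratins were left out of the library totals and of the scaling, krt5 kept a log2 fold change of -1.44.

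Among the 18 keratin genes that passed the filter on low counts, 9 were lower in distal tissue, 0 were higher and 9 did not pass the test, beside the background of 14.4% lower. Their median log2 fold change was -0.84, and 17 of the 18 values were negative. Of the 14 that are not among the 7 genes, 6 were lower; with the replicate number as a block, 12 were lower, while the share over all tested genes was then 25.1%. Without both libraries numbered 2 only 3 of these 14 passed. The keratins in this paragraph are near relatives of one another, and reads that align to more than 1 place were counted to no gene, so reads of near-identical copies are missing and the split between copies is uncertain.

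The keratin with the largest change was krt1-19e, the gene whose older name is krtt1c19e. It had 2.28, 2.19 and 3.28 CPM in distal libraries 2, 3 and 4, from 49, 49 and 66 reads, against 120, 154 and 292 CPM in proximal libraries 2, 3 and 4. Its proximal library numbered 4 was the highest, and even the lowest proximal value was far above the distal ones. The log2 fold change came to -6.33 (SE 0.43; adjusted p = 4.18e-05 by edgeR), 80.2-fold lower in distal tissue, and it ranked 6 from the bottom among the 18455 tested genes. Leaving out each library in turn gave -6.56 to -5.82. In the same libraries krt1-19d, which lies next to krt1-19e in the RefSeq annotation of assembly GRCz12tu, fell by 0.99 on the log2 scale. The log2 ratio of krt1-19e to krt1-19d CPM averaged -7.62 ± 0.25 in distal and -2.39 ± 0.58 in proximal tissue (SD, n = 3 each), without overlap. The result for the basal marker named krtt1c19e is thus a different one under each identifier.

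A fall was also found for krt15, a type I keratin gene. It had 551, 719 and 666 CPM in distal libraries 2, 3 and 4, against 7333, 7004 and 8217 CPM in proximal libraries 2, 3 and 4, with a log2 fold change of -3.67 (SE 0.15; adjusted p = 4.72e-06 by edgeR), 12.7-fold lower in distal tissue. The distal values were close together, as were the proximal ones. The abundant gene krt91 had 5981, 7297 and 7423 CPM in distal libraries 2, 3 and 4, and 21055, 20965 and 26686 CPM in proximal libraries 2, 3 and 4, with a log2 fold change of -1.86 (SE 0.16; adjusted p = 0.000123 by edgeR). The remaining 3 calls outside the 7 genes were krt17 (log2 fold change -1.27), krt94 (-1.05) and krt18b (-0.29), named after their values were seen. The calls of krt17 and krt18b did not hold in every fit: krt17 had an adjusted p of 0.0766 without distal replicate 2 and 0.0803 without distal replicate 3, and krt18b an adjusted p of 0.0516 to 0.159 in the 6 fits that left out 1 library. Without both libraries numbered 2 the call of krt94 was lost too (adjusted p = 0.0941).

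Keratin genes that lie side by side did not change by equal amounts. In the RefSeq annotation of GRCz12tu, used here only for gene order because the counts were made on another build, krt5, krt8, krt18a.1 and krt18a.2 follow one another. Of these krt5 had a log2 fold change of -1.44, krt8 one of -0.13 and krt18a.1 one of 0.19 (SE 0.14; adjusted p = 0.353 by edgeR). The gene krt18a.1 encodes a type I partner of the protein made from krt8, and its distal values of 2616, 3444 and 3781 CPM overlapped the proximal 2545, 2638 and 2724 CPM. Another run holds krt1-19d, krt1-19e, krt92, cyt1l, cyt1, krt17 and krt91, with 1 gene without a keratin name after krt92. Log2 fold changes of the tested genes of that run lay between -6.33 for krt1-19e and -0.63 for krt92, all negative. Those of krt92 and cyt1 did not pass the test, but passed as lower with the replicate block (adjusted p = 0.0111 and 0.00118 by edgeR). The 4 keratins that were not tested were krt95, with 0 reads in all libraries, and krt1-c5, cyt1l and krt18a.2, with 1 to 17 reads per library.

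**Figure D3:**
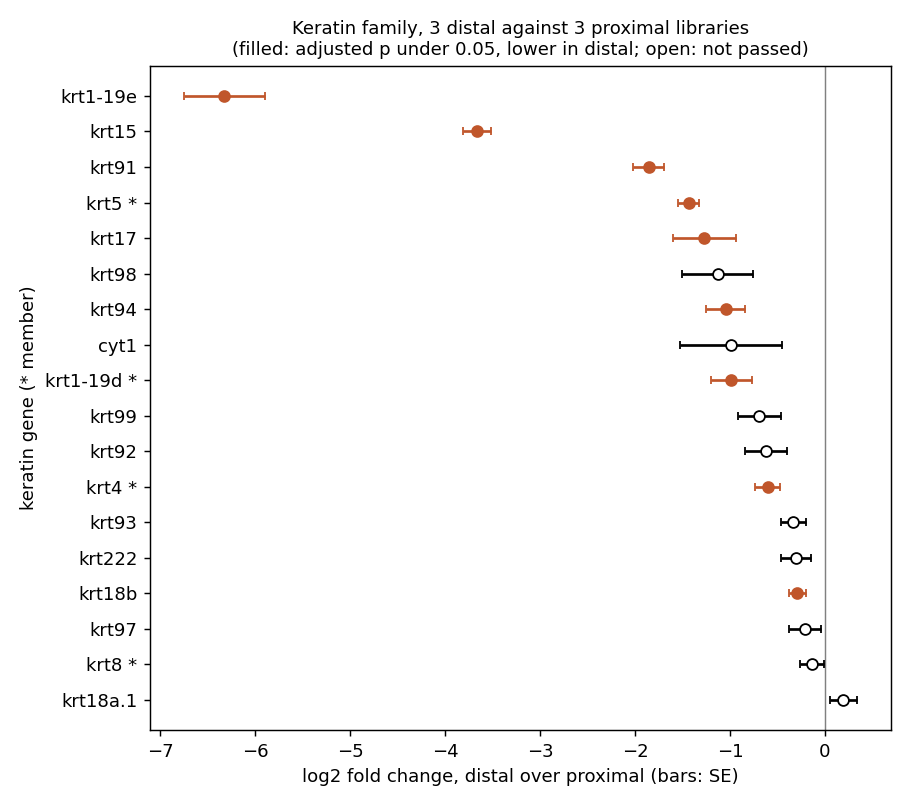
Log2 fold change, distal over proximal, with SE for the 18 tested keratin genes. Filled orange points passed the test and lie below 0, open points did not pass, and asterisks mark krt4, krt5, krt8 and krt1-19d; values run from -6.33 for krt1-19e to 0.19 for krt18a.1.

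Other genes of the basal layer and its attachment were read from a list of 17, of which 14 had a match and were tested. In distal tissue 7 were lower, 4 were higher and 3 did not pass, against 14.4% lower and 15.3% higher in the background, and the list's median log2 fold change was -0.65. Lower in distal tissue were genes of the hemidesmosome that krt5 filaments attach to. The hemidesmosomal collagen gene col17a1a had 7.92, 9.80 and 9.45 CPM in distal libraries 2, 3 and 4, against 119, 168 and 193 CPM in proximal libraries 2, 3 and 4, a log2 fold change of -4.27 (SE 0.21; adjusted p = 1.03e-05 by edgeR). The integrin genes itga6b and itgb4, whose products pair in hemidesmosomes, had log2 fold changes of -1.85 (SE 0.17; adjusted p = 0.000153 by edgeR) and -1.51 (SE 0.31; adjusted p = 0.00769 by edgeR).

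Higher in distal tissue were basement membrane genes and a cytoskeletal linker gene of the same list. The gene fras1, for a protein that anchors epidermis to the underlying tissue, had 732, 732 and 797 CPM in distal libraries 2, 3 and 4, against 100.4, 94.5 and 115 CPM in proximal libraries 2, 3 and 4. Its log2 fold change was 2.74 (SE 0.13; adjusted p = 7.9e-06 by edgeR). The laminin gene lama5 had 623, 696 and 717 CPM in distal libraries 2, 3 and 4, against 161, 142 and 191 CPM in proximal libraries 2, 3 and 4, a log2 fold change of 1.91 (SE 0.15; adjusted p = 7.26e-05 by edgeR). The gene dst, for a linker whose epithelial form sits in hemidesmosomes, rose by 1.34 on the log2 scale (SE 0.11; adjusted p = 0.000107 by edgeR). The basal list thus held changes in both directions in the tissue where krt5 and tp63 were lower. With the replicate block 5 genes of the list were higher and 8 lower, where 23.3% of all tested genes were higher and 25.1% lower. Without both libraries numbered 3, 4 genes of the list were lower in place of 7.

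Of 15 further superficial layer genes, 14 could be matched and 13 tested. In distal tissue 4 were lower, 0 were higher and 9 did not pass, beside 14.4% lower and 15.3% higher among all tested genes, with a median log2 fold change of -0.30; 4 of the tested genes, krt17 among them, are keratins already counted above. Like krt4, the gene icn, for a calcium-binding protein, was lower in distal tissue, with 997, 1109 and 1498 CPM in distal libraries 2, 3 and 4, against 3237, 3111 and 4621 CPM in proximal libraries 2, 3 and 4, a log2 fold change of -1.73 (SE 0.22; adjusted p = 0.000934 by edgeR). The periplakin gene ppl, whose product links keratin to the cell border, had a log2 fold change of -0.72 (SE 0.16; adjusted p = 0.0127 by edgeR, and 0.0523 without distal replicate 3). With the replicate block 7 of the 13 were lower, against 25.1% of all tested genes. Only 1 was lower without distal replicate 3, without both libraries numbered 2, or without both libraries numbered 3. This count thus depends on which libraries are kept.

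Desmosomes join keratin filaments between cells, and 6 of the 12 listed desmosome genes could be matched. Of these 3 were lower (pkp1a, pkp3a and dsg2.1), 1 was higher (pkp2) and 2 did not pass, beside 14.4% lower and 15.3% higher among all tested genes. The list's median log2 fold change was -0.44. With the replicate block 4 were lower and 1 higher, where 25.1% of all tested genes were lower and 23.3% higher. Plakophilin gene pkp1a fell by 1.69 on the log2 scale (SE 0.17; adjusted p = 0.000302 by edgeR), and pkp2 rose by 0.93 (SE 0.23; adjusted p = 0.0192 by edgeR). The calls of pkp3a, dsg2.1 and pkp2 were lost in several fits that left out 1 library, with adjusted p of up to 0.108, 0.0903 and 0.076, while that of pkp1a was kept in all 6; without distal replicate 2, proximal replicate 3 or proximal replicate 4 only 1 gene of the list was lower.

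For the junctions that cdh1 and epcam belong to, 15 of 20 listed genes could be matched, and 2 were higher, 2 lower and 11 did not pass, shares near the 15.3% higher and 14.4% lower among all tested genes. Their median log2 fold change was -0.014, against -0.015 over all tested genes. The gene ctnnb1, for beta-catenin, which binds E-cadherin and also acts in Wnt signalling, had a log2 fold change of 0.63 (SE 0.11; adjusted p = 0.00329 by edgeR). That of ctnna1, for the alpha-catenin that ties cadherins to actin, was -0.34 (SE 0.08; adjusted p = 0.0151 by edgeR, and 0.0581 without distal replicate 3). The calls of claudin genes cldn7b (0.31) and cldnb (-0.49) were each lost in 5 of the 6 fits that left out 1 library, with adjusted p of up to 0.118 and 0.128. With the replicate block 4 of the 15 were higher and 5 lower, where 23.3% of all tested genes were higher and 25.1% lower. Among epithelial regulators, 9 of 10 could be tested, 3 were lower (ovol1b, grhl2a and esrp1), 0 were higher and 6 did not pass, beside 14.4% lower among all tested genes; ovol1b, a zinc finger gene, had the largest change at -0.87 (SE 0.18; adjusted p = 0.00947 by edgeR). With the replicate block 6 regulators were lower, against 25.1% of all tested genes, and without distal replicate 2 only 1 was.

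**Figure D4:**
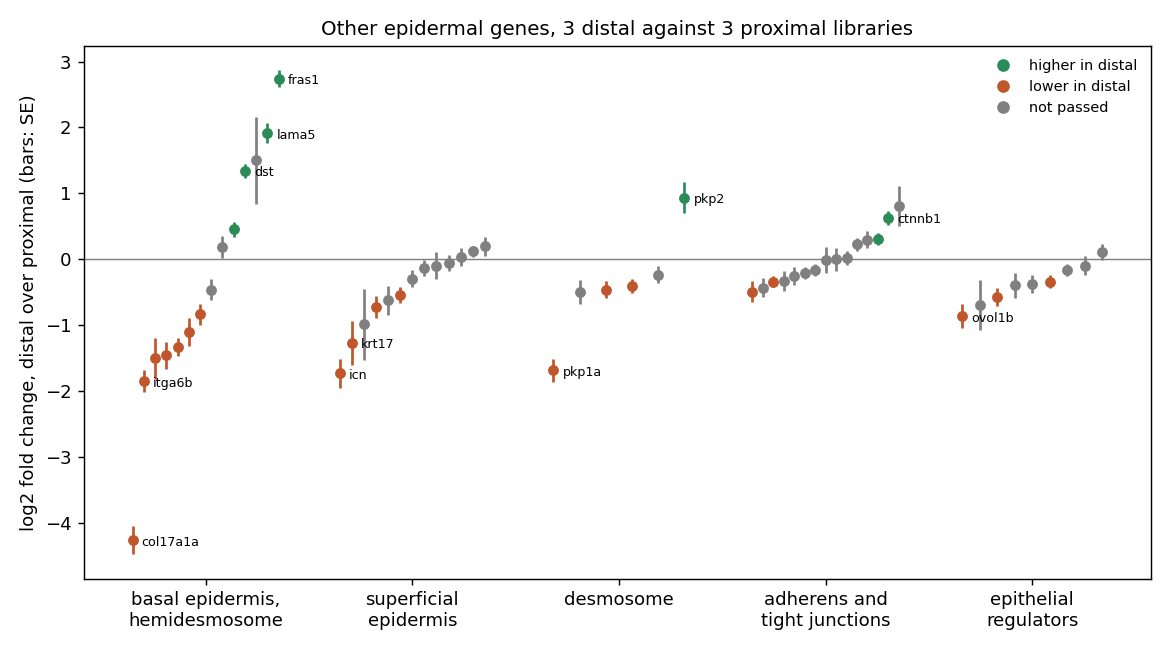
Log2 fold change, distal over proximal, with SE for the tested genes of 5 lists, sorted within each list; green points passed the test and were higher in distal tissue, orange ones were lower and grey ones did not pass. The basal list runs from -4.27 for col17a1a to 2.74 for fras1, while the adherens and tight junction genes run from -0.49 for cldnb to 0.81 for cldn7a, which did not pass.

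Finally, a search was made for genes with a pattern like that of each of the 7. It left out the 7 themselves, genes without a unique symbol and genes with a provisional name, such as si: or zgc: names. Among the other tested genes, the most alike over the 6 libraries were found by Euclidean distance between log2 CPM profiles centred on each gene's mean. For krt5 these were sema4e and cpa6, at distances of 0.13 and 0.13, with log2 fold changes of -1.44 and -1.52. For tp63 they were dhx33 and socs7, at 0.10 and 0.12, and for krt1-19d ebpl and mid1ip1l, at 0.20 and 0.26. The nearest to krt4 were cers5 and eif4b, at 0.07 and 0.08, and to krt8 cox19 and rp2, at 0.06 and 0.08. For epcam they were nktr and bloc1s1, at 0.11 and 0.12, and for cdh1 casp9 and avl9, at 0.06 and 0.08. None of these 14 genes is a keratin or was on the lists. The search could find at most the 14 tested keratins outside the 7, and not all of the 91 matched list genes were tested. These are few beside the 18455 tested genes, from which the searched ones were drawn. This count therefore says little about epidermal genes. Among the 7 genes themselves the closest pairs were krt4 with tp63, at a distance of 0.51, and epcam with cdh1, at 0.54, and the most distant were krt5 and cdh1, at 2.05. Within the 7, the closest pair thus held a basal and a superficial gene, each nearer to the 2 genes named for it above. The log2 fold changes of tp63 and krt4, -0.56 and -0.60, enter this distance, so it is no separate evidence of likeness.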

How the data were processed

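RNA was measured in 6 libraries of regenerating fin tissue, 3 per region. Per the submitters' processing notes, TopHat2 and HTSeq were used with builds GRCz11 and danRer11; roles, versions, annotation release and strand setting are not given in the sources used here. Per the labels' protocols, libraries were made with a stranded mRNA kit. The deposited files hold raw counts per Ensembl gene, plus 1 total line and 5 category lines, which were kept out of the tests. Gene symbols came from a table that matched 29178 of 31901 identifiers and were written in lower case; of 122 listed genes 91 matched, and the other 31 were not analysed here.

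CPM was computed over the sum of gene counts. The regions were compared with edgeR 4.0.16 in R 4.3.3: filterByExpr at a minimum of 10 counts, TMM, glmQLFit and glmQLFTest without a block, Benjamini-Hochberg threshold 0.05. The SE is the absolute log2 fold change divided by the square root of F. Profiles used a prior count of 2. Libraries of a region differed by a chi-square of 13.5 to 23.6 per degree of freedom, so none was a copy of another. Libraries with equal title numbers deviated together (correlation of deviations from the region mean 0.42, 0.56 and 0.68 for numbers 2, 3 and 4). Pair ratios are therefore given, but the main fit, with its SE and adjusted p, did not use the pairs. The fit with the replicate block is given where it changed the count of a list. That the fins were shared is not stated. The alternatives were DESeq2 1.42.0, limma-voom (limma 3.58.1), DESeq2 size factors, library size alone, other filters, the block and leaving out each library; leaving out both libraries of a number, and scaling without keratins, were added after seeing the data. The edgeR fit without a block was checked on simulated counts of independent libraries with 200 changed genes. The block fit, DESeq2 and limma-voom were not checked in this way. The check does not cover data in which many more genes change or same-numbered libraries deviate together. The 7 genes and the lists were chosen with earlier results of these data known. Named from each list were up to 3 passing genes per direction with the largest changes. Also named were the 2 genes closest in profile to each of the 7, among the genes searched. The text gives values for part of these named genes. P-values set the difference between regions against the spread between these pools of fins. The main fit took the libraries as independent, although those with equal numbers deviated together.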

Additional observations from a re-analysis of the deposited data

Results flagged for a closer look

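Reads that aligned to more than 1 place are listed in the files but were counted to no gene, and they were a sizeable part of every library. They made up 34.7% of the listed total on average in distal libraries (32.3 to 38.9%) and 32.0% in proximal libraries (30.2 to 35.3%). The ranges overlap. How many of these reads belong to keratin copies such as krt1-19d and krt1-19e was not tested.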

How the results depend on the processing

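All 7 genes kept the sign of their log2 fold change in the 17 alternatives run. The call of krt5 held in all of them, from -1.47 to -1.31, and so did that of krt1-19e. Other calls were lost only where both libraries of a number were left out. Without both numbered 2, krt4 had -0.59 (adjusted p = 0.128) and krt1-19d -1.02 (adjusted p = 0.0999), and 2231 genes passed over the whole table, against 5480. Without both numbered 3, krt4 had -0.60 (adjusted p = 0.0589) and tp63 -0.55 (adjusted p = 0.0616), and 2932 genes passed. The cause was not tested; these fits have 2 libraries per region. With library size alone, cdh1 passed at 0.35 (adjusted p = 0.0432). With the replicate block 8938 genes passed in all and no call among the 7 changed; cdh1 had an adjusted p of 0.0558. In the fits that left out 1 library the count was 3807 to 5093. The basal to superficial log2 ratio differed by -0.63 between regions as a mean of log2 CPM per layer, against -0.92 for summed reads, since each gene then has equal weight, krt1-19d included as 1 of 3 genes counted as basal; leaving out 1 library gave -0.97 to -0.83. For krt5 to krt4 the range was -0.90 to -0.75, and the replicate block, by exchange within pairs, left -0.83 with an exact p of 0.25.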
